A study of Mus musculus with 12 samples.

Results

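The 9 genes described here encode the enzymes that write, maintain and remove DNA methylation: *Dnmt1*, *Dnmt3a*, *Dnmt3b*, *Dnmt3l*, *Uhrf1*, *Tet1*, *Tet2*, *Tet3* and *Tdg*. They were chosen by symbol, with earlier results of these data known, and all 9 were found among the 35976 gene symbols of the count files. The RNA came from mouse embryonic testis at E15.5, and the libraries fell into 4 groups of 3. Each library was a pool of testes from 3 embryos of the outbred Swiss (RjOrl) strain. In the F1 *thia* group, the mothers received the neonicotinoid thiacloprid (*thia*) in olive oil by gavage at 6 mg/kg/day from E6.5 to E15.5, so the F1 embryos were exposed in utero. The F1 control mothers received the oil alone, recorded as 0 mg/kg/day. The F3 *thia* embryos descended from the treated line through F1 and F2 males mated with unrelated, untreated females, and the F3 controls descended from the oil-treated line in the same way. No F3 embryo was itself dosed. F1 and F3 embryos came from different matings, so generation and any difference in dissection or library preparation between them cannot be told apart.

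Methylated cytosines in CpG pairs are copied after replication by the maintenance enzyme DNMT1, which UHRF1 brings to hemimethylated DNA. New methylation is written by DNMT3A and DNMT3B, and DNMT3L has no catalytic activity of its own but stimulates them in germ cells. TET1, TET2 and TET3 oxidise methylcytosine, and the glycosylase TDG excises the most oxidised forms so that base excision repair can restore an unmodified cytosine. In the fetal testis, male germ cells that have erased most of their methylation stop dividing and begin to acquire new methylation around the stage sampled, while the surrounding Sertoli, interstitial and vascular cells keep dividing. The libraries were whole testis. Fewer cells of a type and less RNA per cell therefore cannot be told apart in any value below.

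All libraries were deep, with 25081647 to 68996146 counts per library, and the lowest count of any of the 9 genes in a library was 279 (*Tet2*). Levels are given in CPM, the counts of a gene scaled to a library total of 1000000 after TMM normalisation. The 10 germ cell markers (*Ddx4*, *Dazl* and others) and the Sertoli, Leydig and interstitial marker lists were all detected. F1 *thia* replicate 2 stood apart on the first principal component of the F1 libraries and carried 514 CPM of skeletal muscle markers, against 21.3 to 63.5 CPM in the other F1 libraries. F3 *thia* replicate 2 stood apart among the F3 libraries and had the lowest germ cell marker sum of all 12, at 303 CPM. The 8 erythroid markers summed to 45424 to 83517 CPM in the F3 libraries and to 5262 to 19070 CPM in the F1 libraries.

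All 9 are protein-coding, and in GENCODE M21 (GRCm38) they lie on 7 chromosomes. *Dnmt1* lies at chr9:20907209-20959888 on the minus strand and *Uhrf1* at chr17:56303321-56323486 on the plus strand. *Dnmt3a* lies at chr12:3806007-3914443, *Dnmt3b* at chr2:153649450-153687730 and *Dnmt3l* at chr10:78041947-78063622, each on the plus strand. *Tet1* lies at chr10:62804570-62908996, *Tet2* at chr3:133463679-133545139 and *Tet3* at chr6:83362373-83459084, each on the minus strand, and *Tdg* at chr10:82629828-82650799 on the plus strand.

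The start regions of the 9 genes were read from RefSeq (GRCm38.p6), which listed 16 start windows for them, each running from 250 bases before to 50 bases after a start. The windows differed widely in CpG pairs. A *Tet2* window held 57 and 2 *Dnmt3a* windows held 46 and 47 CpG pairs, against a median of 7 over all 32851 windows. The 3 *Dnmt3l* windows held 3, 4 and 6. The E2F-type motif TTTCGCGC, searched on both strands, was found in 0.323% of all windows, and among the 16 only in 1 window of *Dnmt1* and 1 of *Uhrf1*. Any of the related forms TTTCCCGC, TTTCGCGC, TTTGCCGC or TTTGGCGC was found in 2.265% of all windows, a count that includes the first motif. Among the 16 windows these forms were found only in the same windows of *Dnmt1* and *Uhrf1*, and that of *Dnmt1* also held TTTGGCGC. Both windows with the motif held 33 CpG pairs. The 30 bases around the match are shown because *Dnmt1* and *Uhrf1* act as a pair in maintenance and are compared with S-phase genes below; capitals mark the match.
Dnmt1: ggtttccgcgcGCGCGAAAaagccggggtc
Uhrf1: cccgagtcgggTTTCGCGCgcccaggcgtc
The *Dnmt1* stretch lay at chr9:20952824-20952853 on the minus strand (GRCm38.p6), with the match starting 219 bases before 1 of the RefSeq starts of the gene and on the opposite strand to it. Other *Dnmt1* start windows lay upstream, the outermost at chr9:20959839-20960138. In GENCODE M21 the stretch overlapped an exon in 2 of 7 *Dnmt1* transcripts, as untranslated sequence in 1. The *Uhrf1* stretch lay at chr17:56304117-56304146 on the plus strand, with the match starting 185 bases before 1 of its RefSeq starts. It was intronic in 2 of 7 *Uhrf1* transcripts, and another *Uhrf1* start window lay upstream. A match is a description of the letters and not evidence of binding.

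Levels were first compared between the genes per kb of summed exon length. In F1 control testis, *Dnmt3l* had the highest level, with 43.8 ± 7.7 CPM per kb (mean ± SD, n = 3). *Uhrf1* followed with 28.4 ± 2.4, *Dnmt1* with 21.7 ± 0.32 and *Dnmt3a* with 18.8 ± 1.2 CPM per kb. None of these 4 neighbours in the order shared a range of library values with the next. *Dnmt3b* was lower, at 4.33 ± 0.38 CPM per kb. *Tet3* had 3.01 ± 0.30 and *Tdg* 2.83 ± 0.10 CPM per kb, and their libraries overlapped. *Tet2* with 1.70 ± 0.38 and *Tet1* with 1.28 ± 0.26 CPM per kb were the lowest, also with overlapping libraries. When the longest transcript was taken as the length, *Dnmt3a* (32.4 CPM per kb) came above *Dnmt1* (27.2 CPM per kb), and the other 7 genes kept their places in F1 control. *Dnmt3l* had the highest mean in each of the 4 groups, but in F3 *thia*, at 25.9 ± 12 CPM per kb, its libraries overlapped those of *Uhrf1* (19.6 ± 2.1 CPM per kb).

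**Figure D1:**
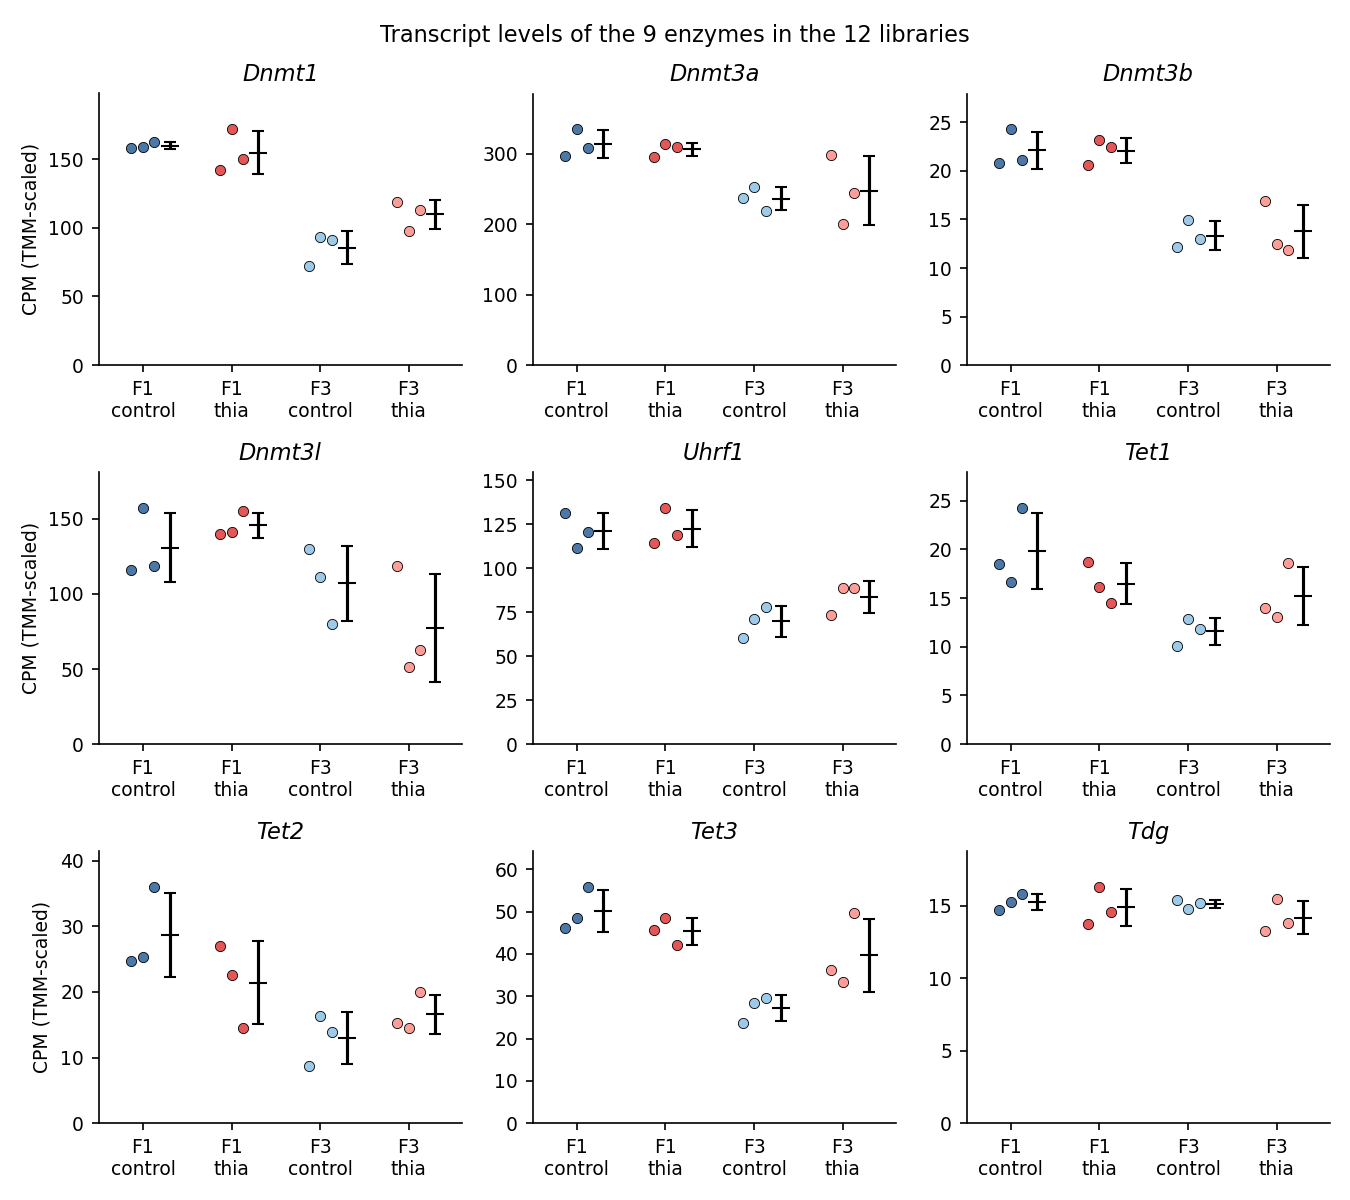
Level of each of the 9 genes in CPM (scaled by TMM over the 12 libraries; linear axis from 0) in F1 control, F1 thia, F3 control and F3 thia testis. Coloured points are libraries and black bars give the mean ± SD (n = 3); 7 genes were lower in every F3 control than in every F1 control library, and Tdg stayed between 13.3 and 16.3 CPM in all 12.

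To test whether direct exposure changed the enzymes, F1 *thia* was compared with F1 control. None of the 9 genes passed edgeR's quasi-likelihood test at an adjusted p of 0.15, where 0.0105% of all 19137 genes did. None of the 9 reached 0.05 before adjustment, as 8.76% of all genes did. In DESeq2, 0 of the 9 and 0.985% of all genes tested were called. The groups overlapped for each of the 9 genes, and 15.0% of all genes had groups that did not overlap. The median log2 fold change of the 9 was -0.020, against 0.0094 over all genes.

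Of the maintenance pair, *Dnmt1* was at 158, 159 and 163 CPM in the F1 controls and at 142, 172 and 150 CPM in F1 *thia*. Its log2 fold change was -0.031 ± 0.095 (SE). *Uhrf1* was at 131, 111 and 120 CPM in the controls and at 114, 134 and 119 CPM in F1 *thia*, a log2 fold change of 0.030 ± 0.099. The *thia* libraries of *Dnmt1* lay on both sides of the controls, and those of *Uhrf1* reached from within their range to above it.

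The catalytic de novo enzymes had estimates as near to 0. *Dnmt3a* was at 297, 335 and 308 CPM in the controls and at 295, 313 and 310 CPM in F1 *thia*. *Dnmt3b* was at 20.8, 24.3 and 21.2 CPM against 20.6, 23.2 and 22.4 CPM. Their log2 fold changes were -0.018 ± 0.090 and 0.013 ± 0.11. The cofactor *Dnmt3l* was at 116, 157 and 119 CPM in the controls and at 140, 142 and 155 CPM in F1 *thia*. Its log2 fold change of 0.17 ± 0.12 (adjusted p = 0.671, edgeR) became 0.32 without F1 control replicate 2, the library with the highest value, and 0.090 without F1 control replicate 1.

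The 3 oxidising enzymes had negative estimates. *Tet2* was at 24.7, 25.3 and 36.0 CPM in the controls and at 27.0, 22.6 and 14.5 CPM in F1 *thia*, a log2 fold change of -0.41 ± 0.22 (adjusted p = 0.607, edgeR). The extremes were F1 control replicate 3, the highest, and F1 *thia* replicate 3, the lowest. Without the first the estimate was -0.22 and without the second -0.19. *Tet1* was at 18.6, 16.7 and 24.3 CPM against 18.7, 16.2 and 14.5 CPM, with a log2 fold change of -0.25 ± 0.15. *Tet3* was at 46.2, 48.6 and 55.9 CPM against 45.6, 48.5 and 42.2 CPM, with -0.13 ± 0.10. In each of the 3 genes the highest control was replicate 3 and the lowest *thia* library was replicate 3, and the other libraries overlapped. *Tdg* was at 14.7, 15.2 and 15.8 CPM in the controls and at 13.7, 16.3 and 14.6 CPM in F1 *thia*, a log2 fold change of -0.020 ± 0.11.

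To test whether the enzymes differed in the generation descended from, but not itself exposed to, the treatment, F3 *thia* was compared with F3 control. *Tet3*, *Tet1* and *Dnmt1* were higher in every F3 *thia* library than in every F3 control library, but no gene in the table passed an adjusted p of 0.1 with edgeR (0.0% of 18539 genes). Before adjustment, 3 of the 9 genes had p under 0.05 with a positive estimate, as 11.0% of all genes did, and 0 with a negative one, as 10.0% did. Libraries that did not overlap were found for 13.4% of all genes with *thia* higher and for 13.9% with *thia* lower. DESeq2 called *Tet3* and *Dnmt1*, and it called 17.1% of the genes it tested. The median log2 fold change of the 9 genes was 0.26, against 0.0044 over all genes. With the trend over transcript length removed, as described below, these medians were 0.16 and -0.023.

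*Tet3*, the most abundant of the oxidising enzymes, was at 23.7, 28.4 and 29.6 CPM in the F3 controls and at 36.2, 33.3 and 49.6 CPM in F3 *thia*. Its log2 fold change was 0.54 ± 0.17, or 1.46-fold (adjusted p = 0.147, edgeR). The adjusted p was 0.0282 with DESeq2, 0.0559 when all 12 libraries shared a fit in edgeR, and 0.086 in edgeR without F3 *thia* replicate 2, the library that stood apart. These edgeR settings also called 1936 and 1294 genes over the whole table. In edgeR the adjusted p was 0.143 with upper quartile scaling, 0.189 with a replicate block, and 0.15 to 0.42 with any other library left out. F3 *thia* replicate 3 was the highest and without it the log2 fold change was 0.34. *Tet1* was at 10.1, 12.9 and 11.8 CPM in the controls and at 14.0, 13.1 and 18.7 CPM in F3 *thia*. This was a log2 fold change of 0.40 ± 0.17 (adjusted p = 0.236, edgeR), and the nearest libraries of the groups were 12.9 and 13.1 CPM. *Tet2* was at 8.65, 16.4 and 13.8 CPM in the controls and at 15.2, 14.5 and 20.0 CPM in F3 *thia*, a log2 fold change of 0.36 ± 0.24 (adjusted p = 0.442, edgeR). Its groups overlapped through F3 control replicate 2. F3 *thia* replicate 3 was also the highest F3 library of *Tet1* and *Tet2*, and without it the estimates were 0.22 and 0.19. Without F3 control replicate 1, the lowest *Tet2* library, that of *Tet2* was 0.14.

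*Dnmt1* was at 72.1, 93.4 and 91.5 CPM in the F3 controls and at 118, 97.9 and 113 CPM in F3 *thia*. The log2 fold change was 0.35 ± 0.12, or 1.28-fold (adjusted p = 0.167, edgeR). The adjusted p was 0.0615 with DESeq2 and 0.0849 when all 12 libraries shared a fit in edgeR. With a library left out it was 0.109 to 0.424 in edgeR. Its partner *Uhrf1* was at 60.3, 71.1 and 77.9 CPM in the controls and at 73.2, 88.8 and 89.0 CPM in F3 *thia*. F3 *thia* replicate 1 fell among the controls, and the log2 fold change of 0.26 ± 0.12 had an adjusted p of 0.281 in edgeR. Without F3 control replicate 1, the lowest library of both genes, the estimates were 0.24 for *Dnmt1* and 0.16 for *Uhrf1*.

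The catalytic de novo enzymes had estimates near 0, smaller than their SE. *Dnmt3a* was at 237, 253 and 219 CPM in the controls and at 298, 200 and 245 CPM in F3 *thia*, so that the *thia* group held both the highest and the lowest library. *Dnmt3b* was at 12.1, 14.96 and 12.96 CPM against 16.9, 12.5 and 11.9 CPM. Their log2 fold changes were 0.066 ± 0.14 and 0.043 ± 0.16. *Dnmt3l* was at 130, 111 and 80.3 CPM in the controls and at 119, 51.3 and 62.4 CPM in F3 *thia*. F3 *thia* replicate 1 lay with the controls and the other 2 libraries were the lowest of all 12. The log2 fold change was -0.47 ± 0.31 (adjusted p = 0.436, edgeR), -0.92 without F3 *thia* replicate 1 and -0.25 without F3 *thia* replicate 2. *Tdg* was at 15.3, 14.8 and 15.2 CPM against 13.3, 15.47 and 13.8 CPM, a log2 fold change of -0.094 ± 0.10.

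**Figure D2:**
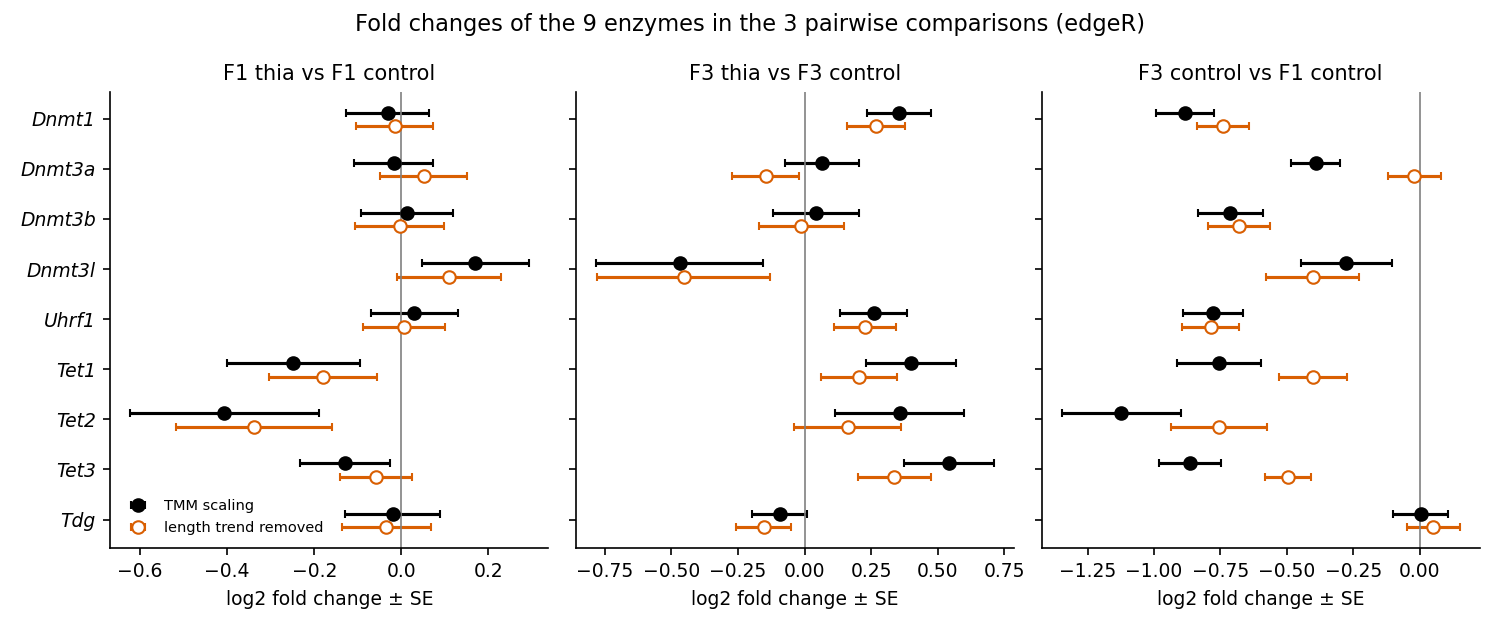
Log2 fold change of the 9 genes (edgeR, points ± SE; x axis on a different range in each panel) in F1 thia against F1 control, F3 thia against F3 control, and F3 control against F1 control. Filled points are from TMM scaling and open points are from the fit with each library's trend over transcript length removed; with it, Tet3 in F3 thia went from 0.54 to 0.34 and Dnmt3a in F3 control went from -0.39 to -0.021.

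In F3, fold change followed transcript length over the whole table, and the *Tet* genes and *Dnmt3a* are long. Transcript length in these comparisons means the summed exon length of a gene. It was 15457 bases for *Tet1*, 16870 for *Tet2*, 16695 for *Tet3* and 16642 for *Dnmt3a*, against 2988 bases for *Dnmt3l*. The longest single transcript was shorter, at 14369 bases for *Tet1*, 9179 for *Tet2*, 10904 for *Tet3* and 9685 for *Dnmt3a*, and no fit used that length. Between F3 *thia* and F3 control, the median log2 fold change was -0.15 in the 10% of genes with the shortest transcripts and 0.16 in the 10% with the longest. When the trend over length was removed from each library, a choice made after seeing the data, the log2 fold change was 0.34 ± 0.14 for *Tet3* (adjusted p = 0.233, edgeR), 0.20 ± 0.14 for *Tet1*, 0.16 ± 0.20 for *Tet2* and 0.27 ± 0.11 for *Dnmt1*. *Dnmt3a* then had a negative estimate of -0.15 ± 0.13. Between F1 *thia* and F1 control the trend ran the other way, with medians of 0.077 for the shortest and -0.072 for the longest transcripts. With it removed, the F1 estimates were -0.18 ± 0.12 for *Tet1*, -0.34 ± 0.18 for *Tet2* and -0.058 ± 0.082 for *Tet3*. How far length contributes to the differences of single genes was not tested beyond these fits.

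**Figure D3:**
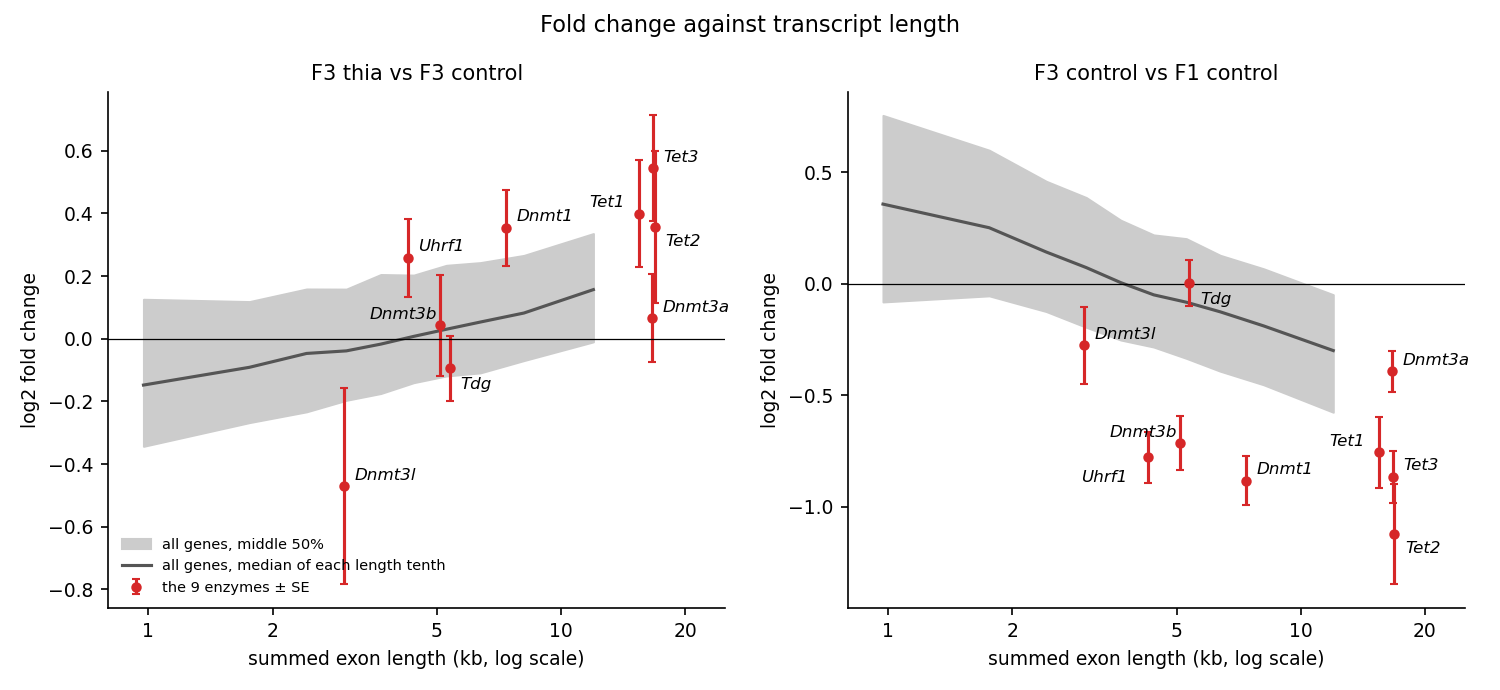
Log2 fold change against summed exon length (kb, log axis) for F3 thia against F3 control and for F3 control against F1 control. The grey line joins the medians of 10 equal groups of genes by length, the band covers the middle 50% of genes, and red points are the 9 enzymes ± SE; the line rises from -0.15 to 0.16 in the first panel and falls from 0.36 to -0.30 in the second.

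The difference between the F3 and the F1 effect was tested directly with an interaction term over all 12 libraries. No enzyme passed an adjusted p of 0.1 with edgeR, as was the case for all but 0.0051% of 19626 genes. Before adjustment, 3 of the 9 had p under 0.05 with a more positive effect in F3, as did 7.93% of all genes. *Tet3* had a difference of effects of 0.69 ± 0.20 on the log2 scale (adjusted p = 0.251, edgeR; 0.0576 with DESeq2, which called 5.67% of the genes it tested). For *Tet1* the difference was 0.67 ± 0.24 (adjusted p = 0.269, edgeR) and for *Dnmt1* 0.40 ± 0.16 (adjusted p = 0.287, edgeR). *Tet2* had 0.78 ± 0.36 (adjusted p = 0.36, edgeR) and *Dnmt3l* -0.62 ± 0.37 (adjusted p = 0.461, edgeR). With the length trend removed, the differences were 0.40 ± 0.16 for *Tet3*, 0.39 ± 0.19 for *Tet1*, 0.28 ± 0.14 for *Dnmt1* and 0.50 for *Tet2*.

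Since *Dnmt3l* is a germ cell gene, each member was also set against 10 germ cell markers. The summed level of these markers was 964, 1334 and 1147 CPM in the F1 controls and 959, 925 and 774 CPM in F1 *thia*. These sums did not overlap, but the nearest libraries were at 964 and 959 CPM. Taken singly, 3 of the 10 markers had groups that did not overlap, as 15.0% of all genes did. None of the 10 markers passed the adjusted threshold in edgeR, and 7 had p under 0.05 before adjustment with a negative estimate, while DESeq2 called 5 as lower. Over all genes, 4.13% had such a p with a negative estimate, and DESeq2 called 0.985% of the genes it tested in either direction. *Dnmt3l* had a positive estimate that did not pass the test. Its log2 CPM minus the mean log2 CPM of the markers was 0.93 to 1.07 in the F1 controls and 1.54 to 2.19 in F1 *thia*, a difference of 0.77 (exact permutation p = 0.1, two-sided, the smallest that 3 against 3 libraries can give). The difference was 0.53 when the markers were summed before taking the log. This was not particular to *Dnmt3l*, since the mean log2 CPM of the markers itself differed by -0.60 between the groups. The other 8 members had differences of 0.15 (*Tet2*) to 0.61 (*Uhrf1*), and 5 of them, *Dnmt1*, *Dnmt3a*, *Dnmt3b*, *Tet3* and *Tdg*, had the same exact permutation p of 0.1. In F3 the markers summed to 799, 673 and 488 CPM in the controls and to 648, 303 and 409 CPM in *thia*, and the libraries with more of them had more *Dnmt3l* in both groups. The corresponding difference for *Dnmt3l* was 0.038 (exact permutation p = 0.8, two-sided), and those of the other 8 members were 0.48 (*Tdg*) to 1.10 (*Tet3*). Over the 12 libraries, *Dnmt3a* and *Dnmt3l* had a Pearson's r of 0.90 after the group means were removed. Both genes ranked the libraries in the same order in F1 control and F3 *thia*, but not in F1 *thia* or F3 control. This is a description, since the libraries also share depth, length trend and cell makeup.

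**Figure D4:**
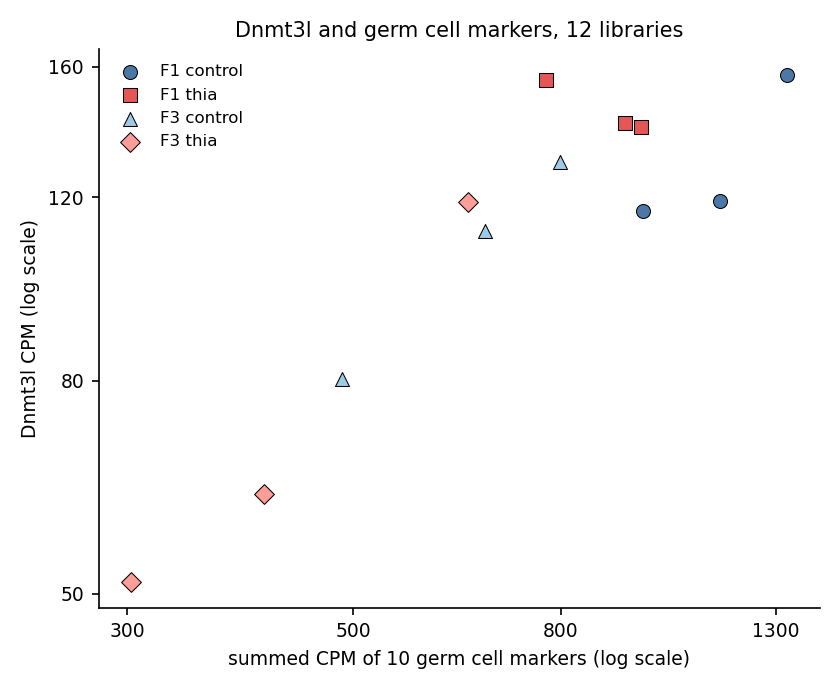
Dnmt3l level (CPM) against the summed CPM of 10 germ cell markers in the 12 libraries, both on log axes, with a symbol for each group. The 3 F1 thia libraries (140 to 155 CPM of Dnmt3l) lie to the left of the F1 controls, with 774 to 959 CPM of markers, and the F3 libraries run together from 51.3 CPM of Dnmt3l at 303 CPM of markers upwards.

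*Dnmt1* and *Uhrf1* act at replication, so they were set against 10 S-phase genes (*Pcna*, the *Mcm* genes and others). In F1 the log2 difference between *thia* and control relative to these genes was -0.070 for *Dnmt1* and -0.0048 for *Uhrf1* (exact permutation p = 0.5 and 1.0, two-sided). In F3 it was 0.46 for *Dnmt1* (exact permutation p = 0.2, two-sided) and 0.37 for *Uhrf1* (exact permutation p = 0.1, two-sided, the smallest possible). A positive difference was not particular to this pair, since *Tet1*, *Tet2* and *Tet3* had larger ones of 0.49, 0.49 and 0.63. The remaining members had -0.43 (*Dnmt3l*) to 0.15 (*Dnmt3a*). The S-phase genes themselves had a median log2 fold change of -0.033 in F3 *thia*, and of the 10, 0 were higher and 2 lower at p under 0.05 before adjustment. Set against 10 mitosis genes, the F3 differences were 0.48 for *Dnmt1*, 0.38 for *Uhrf1*, 0.50 for *Tet1* and 0.64 for *Tet3* (exact permutation p = 0.1 for each, two-sided). The remaining members had -0.42 (*Dnmt3l*) to 0.51 (*Tet2*). The mitosis genes had a median log2 fold change of -0.20, with 1 higher and 3 lower at p under 0.05 before adjustment. Among other cells of the testis, the 6 endothelial markers also had positive estimates in F3 *thia*. They summed to 157 to 178 CPM in the controls and 235 to 280 CPM in *thia*, without overlap, and 5 of 6 had p under 0.05 before adjustment with a positive estimate. The 7 Leydig markers summed to 2206 to 3627 CPM in the controls and 3847 to 6972 CPM in *thia*, and 3 of 7 had a positive and 1 a negative estimate at p under 0.05 before adjustment. None of the S-phase, mitosis, endothelial and Leydig genes passed the adjusted threshold in edgeR. DESeq2 called 4 endothelial markers as higher, 3 Leydig markers as higher and 1 as lower, and 2 S-phase genes as lower. Of the mitosis genes it called 1 as higher and 2 as lower. Over all genes, 11.0% were higher and 10.0% lower at p under 0.05 before adjustment in edgeR. DESeq2 called 17.1% of the genes it tested, and the S-phase share lay near this. The part of these cells in the values of the enzymes was not tested.

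The widest differences among the 9 genes lay between the control groups of the F1 and F3 generations. *Dnmt1*, *Dnmt3a*, *Dnmt3b*, *Uhrf1*, *Tet1*, *Tet2* and *Tet3* were lower in F3 control than in F1 control at an adjusted p of 0.1, and for each of these 7 genes the libraries did not overlap. The background was high: 43.2% of 18588 genes were called, 21.9% as lower and 21.3% as higher, and for 26.4% every F3 control library was below every F1 control library. The split of the calls depended on the scaling, with 49.3% of them higher in F3 under TMM and 59.7% under upper quartile scaling, but the 7 genes were called as lower under both. *Dnmt3l* and *Tdg* were not called.

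*Tet2* had the most negative estimate, from 28.7 ± 6.3 CPM in F1 control to 12.9 ± 3.9 CPM in F3 control (mean ± SD, n = 3), a log2 fold change of -1.12 ± 0.22 (adjusted p = 0.00488, edgeR). *Dnmt1* went from 160 ± 2.4 to 85.7 ± 12 CPM, with -0.88 ± 0.11 (adjusted p = 0.000629, edgeR), and *Tet3* from 50.2 ± 5.0 to 27.2 ± 3.1 CPM, with -0.86 ± 0.12. *Uhrf1* (-0.78 ± 0.11), *Tet1* (-0.75 ± 0.16) and *Dnmt3b* (-0.71 ± 0.12) followed on the same log2 scale. *Dnmt3a* had the least negative of the 7, at -0.39 ± 0.093. *Dnmt3l* went from 131 ± 23 to 107 ± 25 CPM, with -0.28 ± 0.17 (adjusted p = 0.243, edgeR). *Tdg* was at 15.2 ± 0.56 and 15.1 ± 0.30 CPM, with 0.0038 ± 0.10.

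The length trend was steeper in this comparison. The median log2 fold change was 0.36 in the 10% of genes with the shortest transcripts and -0.30 in the 10% with the longest. With the trend removed, *Dnmt3a* was no longer called, at -0.021 ± 0.10 (adjusted p = 0.893, edgeR). The other 6 genes were still called, where 42.0% of all genes with a known length were, with log2 fold changes of -0.74 for *Dnmt1*, -0.79 for *Uhrf1*, -0.68 for *Dnmt3b*, -0.75 for *Tet2*, -0.49 for *Tet3* and -0.40 for *Tet1*. *Dnmt3l* then had an estimate like that of *Tet1*, at -0.40 ± 0.18, just short of a call (adjusted p = 0.106, edgeR). The cell markers also differed between these control groups. Of 10 germ cell markers 6 were lower and 0 higher in F3 control, and of 6 Sertoli markers 4 were lower and 0 higher. Among erythroid markers 7 of 8 were higher, as were all 6 macrophage and 4 of 6 skeletal muscle markers, and 5 of 6 endothelial markers were lower. Of 7 Leydig markers 1 was higher and 2 lower, and of 6 interstitial markers 2 were higher and 2 lower. All these calls were at an adjusted p of 0.1 in edgeR. The part of these cells in the lower level of the 7 enzymes was not tested.

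The other genes of the methylation pathway were taken from 5 lists that together held 74 genes, of which 73 were in the files. These lists were chosen with earlier results of these data known, so the counts from them are descriptions and not independent tests. In F1 *thia*, 72 of them could be tested. Before adjustment, 6 had p under 0.05 with a negative estimate and 0 with a positive one, where 4.13% and 4.63% of all genes did. Of these 6, *Dppa3*, a germ cell factor that limits UHRF1 activity and protects DNA from TET3 in the zygote, passed the adjusted threshold. It went from 72.7 ± 7.0 to 22.4 ± 6.2 CPM, a log2 fold change of -1.69 ± 0.19 (adjusted p = 0.0278, edgeR), and it was not called when all 12 libraries shared a fit or without F1 control replicate 2 or 3 (adjusted p = 0.5, 0.18 and 0.301, edgeR). The others were *Ogt* (-0.47 ± 0.16), whose product binds the TET proteins, *Hells* (-0.35 ± 0.12), a chromatin remodeller needed for DNA methylation, and *Zfp445* (-0.28 ± 0.12), which protects imprints. *Morc1* (-0.28 ± 0.12), which silences transposons in male germ cells, and the reader *Zbtb33* (-0.27 ± 0.12) completed the 6. Germ cell markers were lower in the same libraries, as given above, and their part in these values was not tested.

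In F3 *thia*, none of the 72 pathway genes tested passed the adjusted threshold in edgeR. Before adjustment, 6 had p under 0.05 with a positive and 6 with a negative estimate, and DESeq2 called 8. Over all genes these shares were 11.0%, 10.0% and 17.1%, so that each of the 3 counts among 72 genes lay below the background, and the values that follow are descriptions of single genes. Of the base excision repair genes, *Polb*, the repair polymerase, went from 19.9 ± 1.7 to 15.4 ± 0.69 CPM with a log2 fold change of -0.37 ± 0.098 (adjusted p = 0.121, edgeR). *Apex1*, which cuts the strand after a glycosylase has acted, went from 173 ± 18 to 129 ± 18 CPM with -0.42 ± 0.12 (adjusted p = 0.128, edgeR). For both genes the libraries did not overlap and DESeq2 called them. Of the methyl donor genes, *Mat2b* (-0.34 ± 0.077), a regulatory subunit of methionine adenosyltransferase, was lower in all F3 *thia* libraries than in all F3 control libraries, and *Slc19a1* (0.30 ± 0.096), a folate carrier, was higher in all of them. Readers of methylated DNA had *Zbtb4* at 0.40 ± 0.15 and *Zbtb38* at 0.59 ± 0.23. Among partners of the writing enzymes, *Kdm1b*, a histone demethylase required for imprints in oocytes, had 0.54 ± 0.21, *Setd2*, which writes the histone mark read by DNMT3A and DNMT3B, 0.34 ± 0.14 (0.20 with the length trend removed), and *Cdca7*, the partner of HELLS, -0.18 ± 0.065. *Dppa3* had -1.34 ± 0.50 with overlapping groups. All adjusted p-values of these genes in edgeR lay above 0.1.

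**Figure D5:**
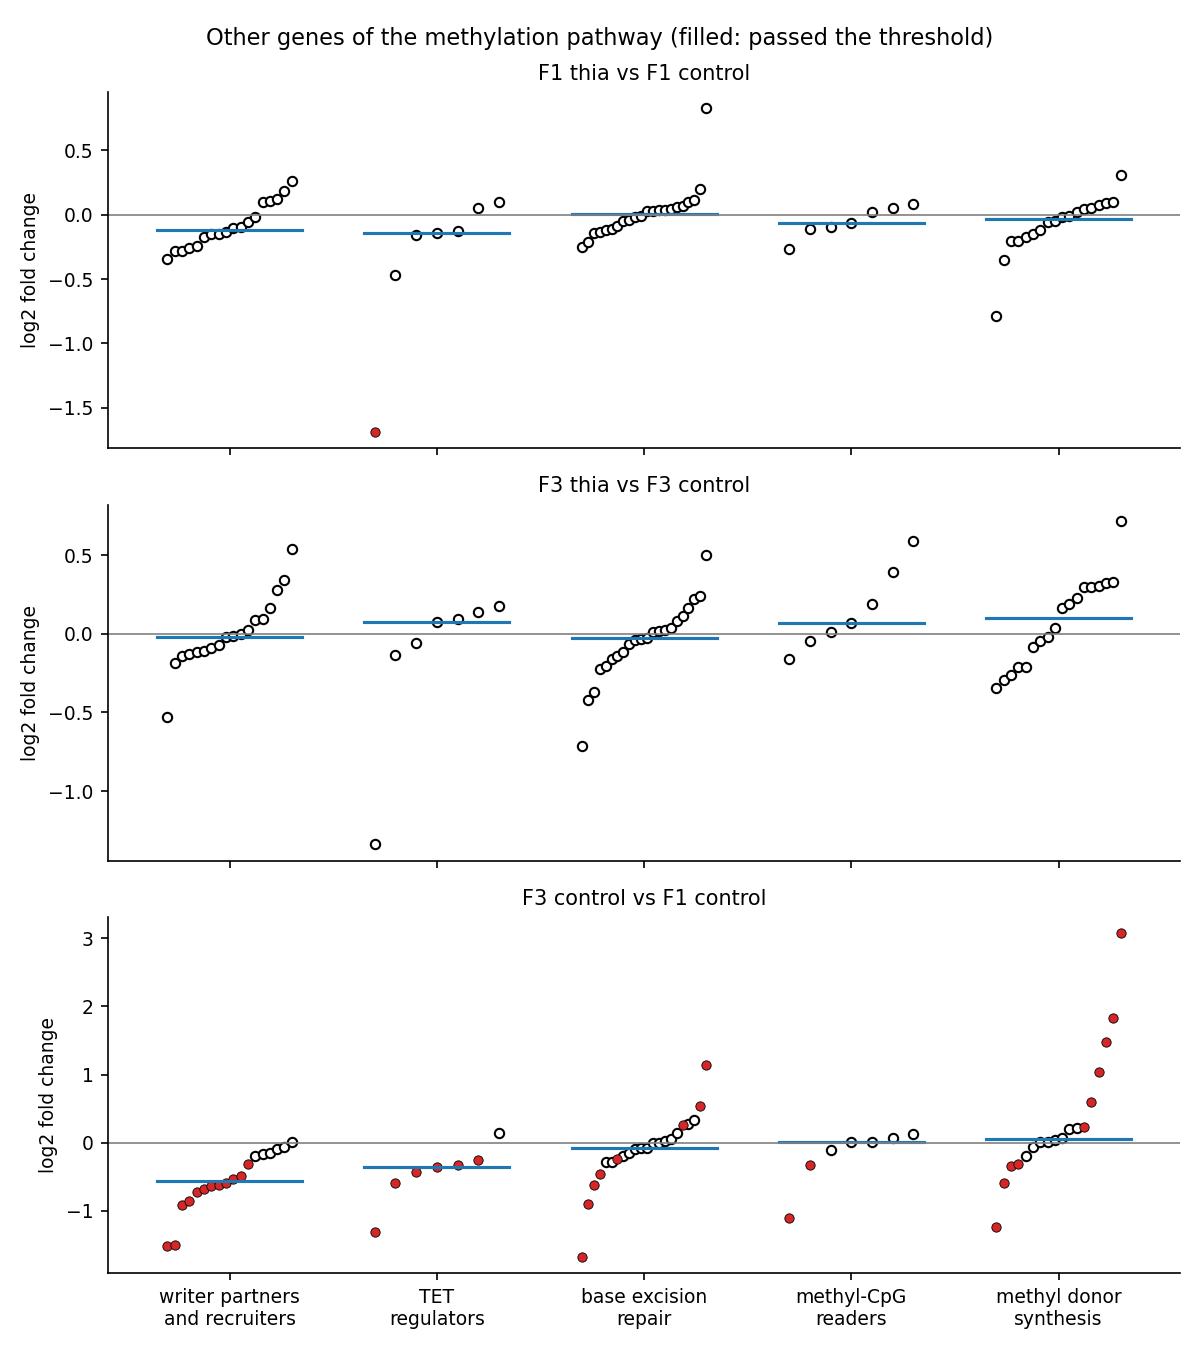
Log2 fold change of each tested gene of the 5 pathway lists (points, ordered within a list; y axis on a different range in each panel) in the 3 pairwise comparisons. Filled red points passed the adjusted threshold (0.15 in F1 thia, 0.1 elsewhere) and blue lines are list medians; 1 gene passed in F1 thia, 0 in F3 thia and 38 in F3 control against F1 control.

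Between the control groups, 21.3% of all genes were called as higher in F3 control and 21.9% as lower. Of 18 partners and recruiters of the writing enzymes, 12 were lower in F3 control and 0 were higher at an adjusted p of 0.1, with a median log2 fold change of -0.56 against -0.0092 over all genes. *Kdm1b* (-1.52 ± 0.16), *Setd2* (-0.86 ± 0.12), *Ehmt2* (-0.68 ± 0.10), a histone H3K9 methyltransferase, and *Nsd1* (-0.59 ± 0.11), a histone H3K36 methyltransferase, had the smallest p-values among them. With the length trend removed, *Nsd1*, a long gene, had -0.22 ± 0.081. Of 7 regulators of the TET enzymes 6 were lower, among them *Dppa3* (-1.32 ± 0.23) and *Ogt* (-0.58 ± 0.15). With the length trend removed, 4 of these 7 regulators and still 12 partners and recruiters were called as lower. Germ cell markers were also lower in F3 control, as given above, and their part in these values was not tested. In the other lists, the shares of lower genes were nearer to that of all genes. Of 22 base excision repair and deamination genes 3 were higher and 5 lower. *Parp1* (-0.63 ± 0.093), which senses strand breaks, and the glycosylase *Neil2* (-0.91 ± 0.18) were among the lower ones. Of 7 readers 2 were lower, among them *Zbtb38* (-1.11 ± 0.21). Of 18 methyl donor genes 6 were higher and 4 lower. *Mtr*, which makes methionine from homocysteine with folate, went from 139 ± 42 to 58.0 ± 9.0 CPM, a log2 fold change of -1.24 ± 0.20. *Bhmt*, which makes it with betaine, went from 2.26 ± 1.1 to 18.9 ± 18 CPM, with 3.07 ± 0.63 and a spread in F3 control as wide as its mean. *Ahcy*, which removes the inhibitor S-adenosylhomocysteine, was higher by 0.60 ± 0.12.

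For each enzyme, the 3 genes with the most similar pattern over the 12 libraries were listed by Pearson's r of log2 CPM with the 4 group means removed, among 12194 genes with a mean of at least 5 CPM. For *Dnmt1* they were *Chd4* (r = 0.97), *Uaca* and *Dab2ip*, and for *Uhrf1* they were *Pcyt2* (r = 0.98), *Nfkb1* and *Zfp503*. For *Dnmt3a* they were *Gstm6* (r = 0.99), *Smarcal1* and *Jakmip2*, for *Dnmt3b* *Wdr33* (r = 0.95), *Kif2c* and *Prdm1*, and for *Dnmt3l* *Chmp7* (r = 0.99), *Usp28* and *Mtmr14*. For *Tet1* they were *Stim2* (r = 0.95), *Sox5* and *Ncam1*, for *Tet2* *Hivep1* (r = 0.98), *Magi1* and *Zfp236*, and for *Tet3* *Afap1* (r = 0.98), *Arid5b* and *Crebbp*. For *Tdg* they were *Rap1gap2* (r = 0.97), *Pabpc1* and *Ppp2r5c*. Among the enzymes themselves, the 3 *Tet* genes had r of 0.76 to 0.87 with each other. *Dnmt3l* and *Uhrf1* had an r of -0.82. These values describe 12 libraries that share length trends and cell makeup, and no test was made on them.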

How the data were processed

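RNA-seq was done on 12 libraries of E15.5 mouse testis, 3 per group. The values used are raw counts per gene that the authors deposited, made with bcl2fastq 2.20.0.422, HISAT2 2.1.0 (mm10, paired-end, reverse strand) and featureCounts on a RefSeq gene annotation, per the labels and the study's methods. Whether fragments or reads were counted is not given in the sources used here. Each file had 1 column of counts. Replicates were separate pools, and all pairs differed by more than sampling noise (chi-square per degree of freedom 17.3 or more). Counts were analysed with edgeR 4.0.16 in R 4.3.3 (TMM, filterByExpr with a minimum count of 10, quasi-likelihood test, Benjamini-Hochberg adjustment over all genes), at the study's thresholds of 0.15 for F1 and 0.1 for F3, and tested on simulated data. DESeq2 1.42.0, other scalings and filters, a replicate block, leaving out each library, and removal of length or GC trends (loess span 0.3) were alternatives, the last 2 chosen after seeing the data. SE is the log2 fold change divided by the square root of the F statistic. CPM values carry TMM scaling over 12 libraries, and the log2 CPM used in the marker comparisons a prior count of 2. Lengths came from GENCODE M21 (summed exons in the length fits), with a length for 92.8% or more of the genes tested, so genes without one are missing from the length fits. The members and lists were chosen with earlier results of these data known. All 9 members were named, along with up to 4 genes per list, direction and comparison, by smallest unadjusted p under 0.05, of which some are printed and a few are not reported here. *Dnmt3c*, a near copy of *Dnmt3b*, had no row in the count files, so its reads could be in *Dnmt3b* or unassigned. *Tdg* overlaps *Glt8d2* on the opposite strand (4608 counts summed over libraries, against 8071) and has a pseudogene *Tdg-ps* with 129. Batches of the breeding, which the study ran more than once, are not in the labels, so no within-batch value was possible. The 3 libraries of a group limit the precision more than depth does.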

Additional observations from a re-analysis of the deposited data

How the results depend on the processing

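With 3 libraries per group, no test within a generation separated the 9 enzymes firmly. Of 9 members, 7 were called between control groups under every setting run, except 6 with the length trend removed. In F3 *thia*, where 0 were called in edgeR, DESeq2 and the fit of all 12 libraries each called 2 (*Tet3* and *Dnmt1*), and leaving out a library gave 0 to 1. For the difference between generations DESeq2 called 1 member and 1 other pathway gene (*Tet3* and *Setd2*), against 0 and 0. Other pathway genes called in F1 *thia* were 1, 2 without the low-count filter, 0 in the fit of all 12 libraries and 0 to 1 with a library left out. In F3 *thia* they were 0, 8 with DESeq2, 1 with upper quartile scaling, 6 with all 12 libraries and 0 to 3 with a library left out. Over all genes, F1 *thia* gave 2 calls, 170 with DESeq2, 243 without the filter, 0 with all 12 libraries, 13 and 5 with the length and GC trend removed, and 0 to 20 with a library left out. F3 *thia* gave 0 calls (2044 genes higher and 1862 lower had an unadjusted p under 0.05), 2546 with DESeq2, 520 with upper quartile scaling, 569 without the filter, 333 with at least 10 counts in every library, 81 with bias-adjusted deviances, 1936 with all 12 libraries, 14 with the GC trend removed, and 0 to 1294 with a library left out, the highest without F3 *thia* replicate 2. The difference between generations gave 1 call, 724 with DESeq2, 2 with the GC trend removed, 0 with the replicate block and 0 to 4 with a library left out. The cause of these shifts was not tested.

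Estimates near 0 changed sign. In F1 *thia*, *Dnmt3a* was 0.0022 with upper quartile scaling and 0.051 with the length trend removed, *Dnmt3b* -0.0018 with all 12 libraries, -0.0037 with the length and -0.081 with the GC trend removed, and *Uhrf1* -0.074 with the GC trend removed. With a library left out, *Dnmt1* ranged from -0.113 to 0.0275, *Dnmt3a* from -0.0575 to 0.0323, *Dnmt3b* from -0.0303 to 0.0883, *Uhrf1* from -0.0412 to 0.0912 and *Tdg* from -0.0882 to 0.0336. In F3 *thia*, *Dnmt3a* was -0.146 with the length trend removed and ranged from -0.0982 to 0.199 with a library left out, and *Dnmt3b* was -0.0115 and -0.0108 with the length and GC trend removed and ranged from -0.141 to 0.136. For the difference between generations, *Dnmt3a* was -0.195 with the length trend removed (range -0.0287 to 0.233), *Dnmt3b* -0.0281 with upper quartile scaling and -0.0081 with the length trend removed (range -0.104 to 0.145), and *Tdg* ranged from -0.124 to 0.0133. Between control groups, *Tdg* was -0.0209 without the filter, -0.0121 with all 12 libraries and -0.035 with the GC trend removed (range -0.0169 to 0.0278). Relative to markers, *Dnmt3l* in F3 ranged from -0.0382 to 0.159 and *Uhrf1* in F1 from -0.0461 to 0.045 with a library left out.

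Levels per kb in F1 control with the longest transcript as length were 27.2 (*Dnmt1*), 32.4 (*Dnmt3a*), 5.12 (*Dnmt3b*), 71.8 (*Dnmt3l*), 33.8 (*Uhrf1*), 3.12 (*Tet2*), 4.61 (*Tet3*) and 4.35 (*Tdg*). With CPM from total counts they were 23.1 (*Dnmt1*), 20.1 (*Dnmt3a*) and 3.03 (*Tdg*).

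Deviations of same-numbered libraries of different groups had correlations from -0.368 to 0.195, so the replicate numbers were not treated as pairs. With 3 libraries per group this cannot exclude a pairing. F3 control replicate 1 did have its best match in F3 *thia* replicate 1 (0.195). With the replicate block, 0, 0, 0 and 7 members were called in F1 *thia*, F3 *thia*, the difference and the control groups, and *Tet3* in F3 *thia* had a log2 fold change of 0.53 (adjusted p = 0.189, edgeR).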
